A study of Homo sapiens with 12 samples.

Results

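The genes of the NF-κB family were followed in HK2 cells, an immortalised line of human proximal tubular epithelial cells. The 10 genes were chosen by symbol: the 5 subunit genes NFKB1, NFKB2, REL, RELA and RELB, and the 5 genes of IκB proteins NFKBIA, NFKBIB, NFKBIE, NFKBIZ and BCL3. Each matched 1 of the 58278 genes listed, and all 10 passed the filter on low counts, which kept 24342 genes. Bulk mRNA was sequenced in 12 libraries, 2 biological replicates in each of 6 groups. Untreated cells formed the group Ctrl, and exposure to 5 ng/mL of TNF-α for 3 h gave the group TN. In PRTN and BUTN, propionate at 15 mM or butyrate at 3 mM was present for 24 h before the same TNF-α. In TNPR and TNBU, the same short-chain fatty acids (SCFAs) were given for 24 h after TNF-α. No group received an SCFA without TNF-α, and TN was collected at 3 h, so the SCFA and the longer time after TNF-α cannot be told apart in TNPR and TNBU. A treatment text shared by all labels mentions thapsigargin and JQ1 instead, while the labels of the single libraries give TNF-α and the SCFA, and the latter were used.

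NF-κB is a family of dimeric transcription factors. In resting cells IκB proteins hold the dimers in the cytoplasm. Binding of TNF-α to its receptor activates the IκB kinase complex, which marks IκB for degradation and lets the dimers enter the nucleus. The dimers bind short DNA motifs called κB sites and raise transcription of inflammatory genes, and also of several of their own subunits and inhibitors, which ends the response. In tubular epithelium this pathway drives chemokine and cytokine production during kidney injury.

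Total expected counts ranged from 27269986 to 33851130 per library, with a median of 30545923. Levels are given as CPM (the counts of a gene relative to the library total) scaled with TMM factors, which ranged from 0.913 to 1.06. As a check of the cell type, the summed level of 5 epithelial markers was 1116 to 1215 CPM in Ctrl and TN and 1729 to 2318 CPM in the SCFA groups, while EPCAM among them went from 55.1 to 58.1 CPM down to 13.3 to 23.2 CPM. The 6 proximal tubule markers summed to 181 to 224 CPM in Ctrl and TN and to 70.9 to 94.0 CPM in the SCFA groups, a decrease that was that of GGT1 (179 to 221 CPM and 59.95 to 74.0 CPM). AQP1, ANPEP, CUBN and LRP2 went the other way, for example AQP1 from 0.359 to 0.721 CPM up to 5.98 to 15.1 CPM, and LRP2 was at 0 in Ctrl and TN. The 6 leukocyte markers summed to 0.782 to 1.00 CPM in Ctrl and TN and to 2.22 to 4.72 CPM in the SCFA groups, with MS4A1 at 0 throughout and CD3E and FCGR3A at 0 in Ctrl and TN. The 3 endothelial markers summed to 0.143 to 0.287 CPM and 2.18 to 3.61 CPM, respectively. These marker levels moved with SCFA treatment, and their part in the results was not tested. Replicates stood further apart after the late treatments. Over 14984 genes with at least 1 CPM on average, the median absolute log2 difference was 0.124 in TNPR and 0.143 in TNBU. In the other groups it was 0.0600 to 0.103. For the 10 genes the median was 0.179 in TNPR and 0.260 in TNBU, against 0.0661 to 0.105 in the other groups. All 10 genes were higher in replicate 1 than in replicate 2 of TNPR, where the share of all genes higher in replicate 1 was not counted. The share of mitochondrial counts was 9.46% and 7.55% in these TNPR replicates, and 5.86% and 7.57% in those of TNBU, and its part in the results was not tested. In bulk RNA, fewer expressing cells and less RNA per cell cannot be told apart.

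The κB consensus was searched on both strands in the RefSeq promoters (GRCh38.p14), from 250 bases before to 50 bases after each transcription start, since it is the DNA motif that these proteins bind. Of the 10 genes, 8 had an entry, with 14 start sites, and RELB and NFKBIE had none. At least 1 match lay at 9 of the 14 starts and in 7 of the 8 genes, the exception being RELA. Over all 35116 promoters of the table, 11.27% held a match. This share is per start, as are the 9 of 14, and no share per gene was counted. Below, each window is read on the strand of its gene, and capitals mark the match, which for NFKBIA is the reverse complement of the 10 bases seen in NFKB1.
NFKB1, chr4:102501300-102501329: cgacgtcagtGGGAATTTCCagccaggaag
NFKBIA, chr14:35404811-35404840: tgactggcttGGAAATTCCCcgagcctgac
NFKBIZ, chr3:101827757-101827786: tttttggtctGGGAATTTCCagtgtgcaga
NFKBIB, chr19:38899931-38899960: gggcgtggtgGGGAATTTCCCgcagggcgg
REL, chr2:60881517-60881546: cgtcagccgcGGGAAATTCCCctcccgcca
NFKB2, chr10:102394461-102394490: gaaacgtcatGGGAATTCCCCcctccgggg
NFKB2, chr10:102395674-102395703: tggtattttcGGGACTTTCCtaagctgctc
BCL3, chr19:44748700-44748729: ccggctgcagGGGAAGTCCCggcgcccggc

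The windows shown for NFKB1, NFKBIA and NFKBIZ lay outside the annotated gene, whereas those of NFKBIB, REL, NFKB2 and BCL3 overlapped an annotated exon. The match began 49 bases before the start in NFKB1, 81 in NFKBIA, 223 in NFKBIZ, 28 in NFKBIB and 47 in REL. NFKB2 held 4 matches over 2 of its 3 starts, and NFKBIZ held another at its second start, in a window that overlapped an exon. The 10 bases of NFKB1 also stood, on one strand or the other, in the matches of NFKBIA, NFKBIZ, NFKBIB and REL. Of these 5 genes, NFKB1 and NFKBIA were called up after TNF-α alone. A match is a description of the letters, and binding was not measured.

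**Figure D1:**
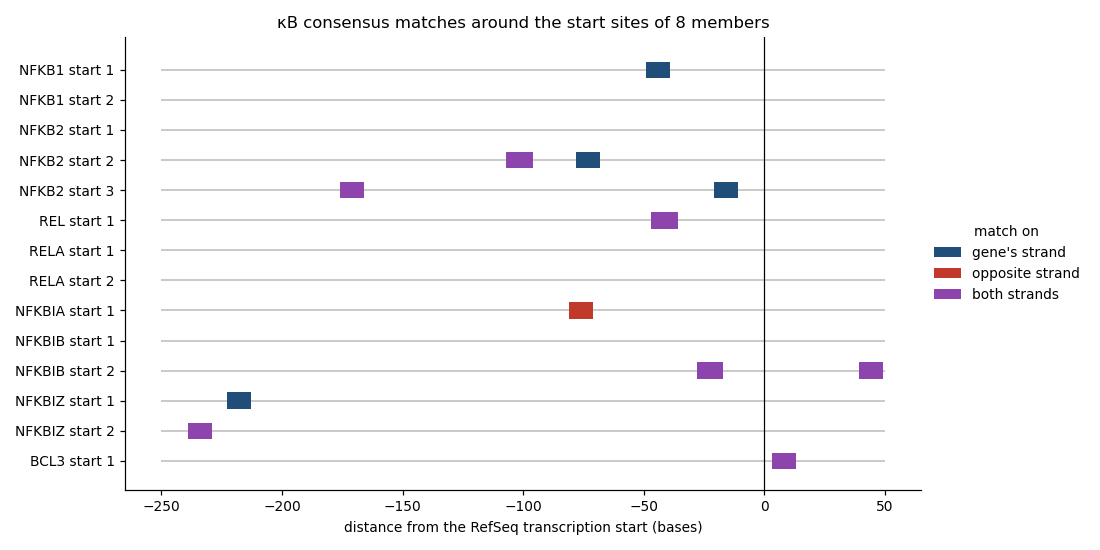
Positions of κB consensus matches (blocks) around the 14 RefSeq start sites of 8 genes, with the distance from the start in bases on the x axis and 1 line per start. Matches appear at 9 of the 14 starts, and neither start of RELA holds one.

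TNF-α alone raised 5 of the 10 genes against untreated cells and lowered none. The subunit genes NFKB1, NFKB2 and RELB and the inhibitor genes NFKBIA and NFKBIE rose, where a call needed more than a 1.5-fold difference and an adjusted p below 0.05 (limma with voom weights, Benjamini-Hochberg over all tested genes). Of all tested genes, 0.764% were called up and 0.534% down. At an unadjusted p under 0.05, 6 of the 10 were higher and 1 was lower, and edgeR and DESeq2 each called 5 up and 0 down. The share of all genes at this unadjusted threshold was not counted in any comparison. The log2 fold changes were 1.08 for NFKB1, 1.05 for RELB, 1.00 for NFKB2, 0.72 for NFKBIA and 0.66 for NFKBIE, with standard errors from 0.06 to 0.12. The median over the 10 genes was 0.51, against -0.01 over all genes. With only the 4 libraries compared in the fit, RELB (adjusted p = 0.0532) and NFKBIE (adjusted p = 0.0709) lost the call.

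**Figure D2:**
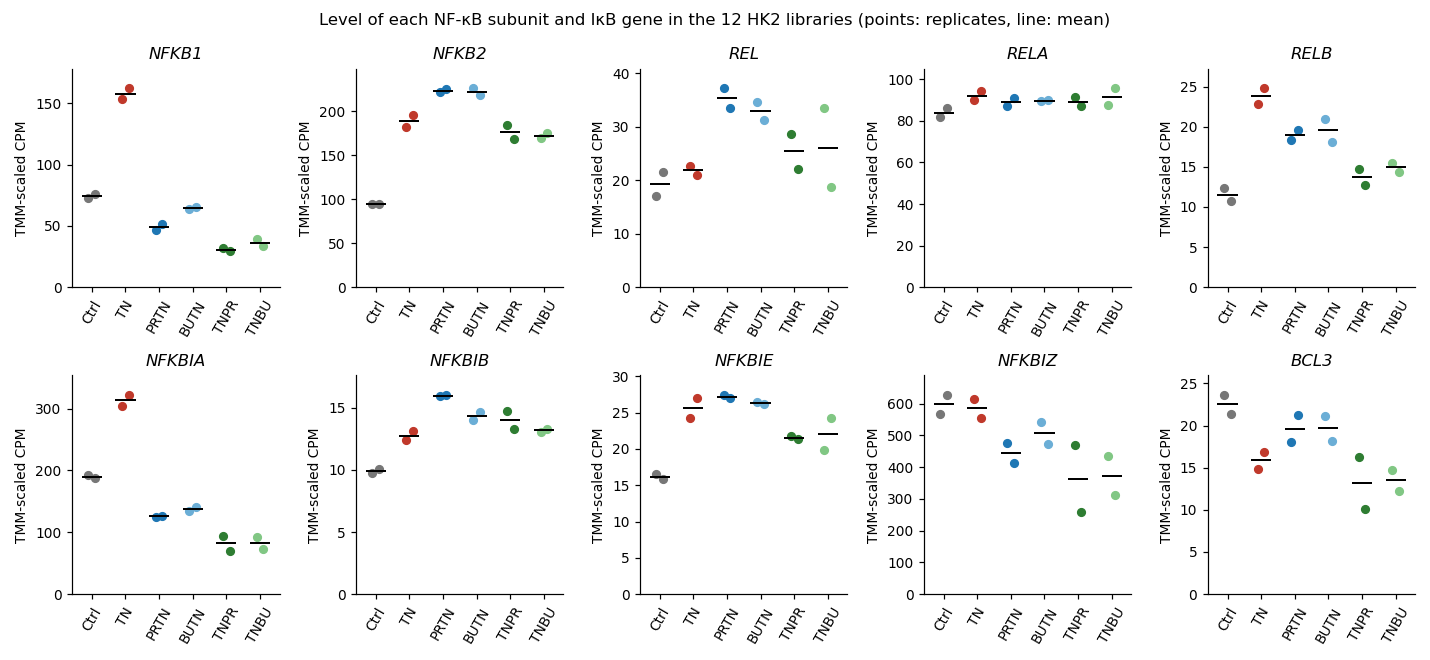
TMM-scaled CPM of each gene in the 6 groups, with 1 point per replicate and a line at the mean of 2. NFKB1 and NFKBIA are highest in TN and lowest in TNPR and TNBU, NFKB2 stays above Ctrl in all treated groups, and RELA lies between 81.9 and 95.6 CPM in all 12 libraries.

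The SCFA groups were compared with TN to see how levels differed with propionate or butyrate, and with Ctrl to place them relative to untreated cells. Without a group given an SCFA alone, an altered response to TNF-α and an SCFA effect apart from TNF-α cannot be told apart. This holds for all 4 SCFA groups. These comparisons share the TN or Ctrl libraries and are not independent of each other. In PRTN vs TN, REL was called up and NFKB1 and NFKBIA down, while 23.9% of all genes were called up and 16.7% down. In BUTN vs TN the calls were again 1 up and 2 down, with 23.1% of all genes up and 14.8% down. In TNPR vs TN, 4 genes were called down (NFKB1, NFKBIA, RELB and NFKBIZ), with 24.9% of all genes up and 16.9% down. In TNBU vs TN, 4 were likewise called down, with 25.0% of all genes up and 16.5% down. No gene of the 10 was called up in TNPR or TNBU vs TN by limma, edgeR or DESeq2, and 0 were higher at an unadjusted p under 0.05. The counts in PRTN and BUTN are near or below these backgrounds and are no result about the family, and the 4 down calls in TNPR and TNBU, above the share of all genes, come from genes chosen with earlier results known. The genes are therefore described singly. The up call of REL gave way to 0 without TN replicate 1 or TN replicate 2 in both PRTN and BUTN, without PRTN replicate 1 in PRTN and without either BUTN replicate in BUTN. Leaving out TNBU replicate 2 raised the count of up calls in TNBU vs TN from 0 to 1, again REL.

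Against Ctrl, 5 genes were called up and 2 down in PRTN, with 22.6% and 16.9% of all genes called in these directions. BUTN had 4 genes up and 0 down, with 22.0% and 14.9% of all genes. For the 0 in BUTN, 2 genes were lower at an unadjusted p under 0.05, and edgeR and DESeq2 called 0. In TNPR, 1 gene was up and 4 were down, with 23.6% and 16.8% of all genes. TNBU also had 1 up and 4 down, with 23.6% and 16.5% of all genes. In all 4 SCFA groups NFKB2 was among the genes called up against Ctrl. The 2 down calls of PRTN fell to 1 without Ctrl replicate 1, Ctrl replicate 2 or PRTN replicate 1. The 4 down calls of TNPR fell to 2 without TNPR replicate 2, and the up calls of TNBU rose from 1 to 2 without TNBU replicate 2.

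**Figure D3:**
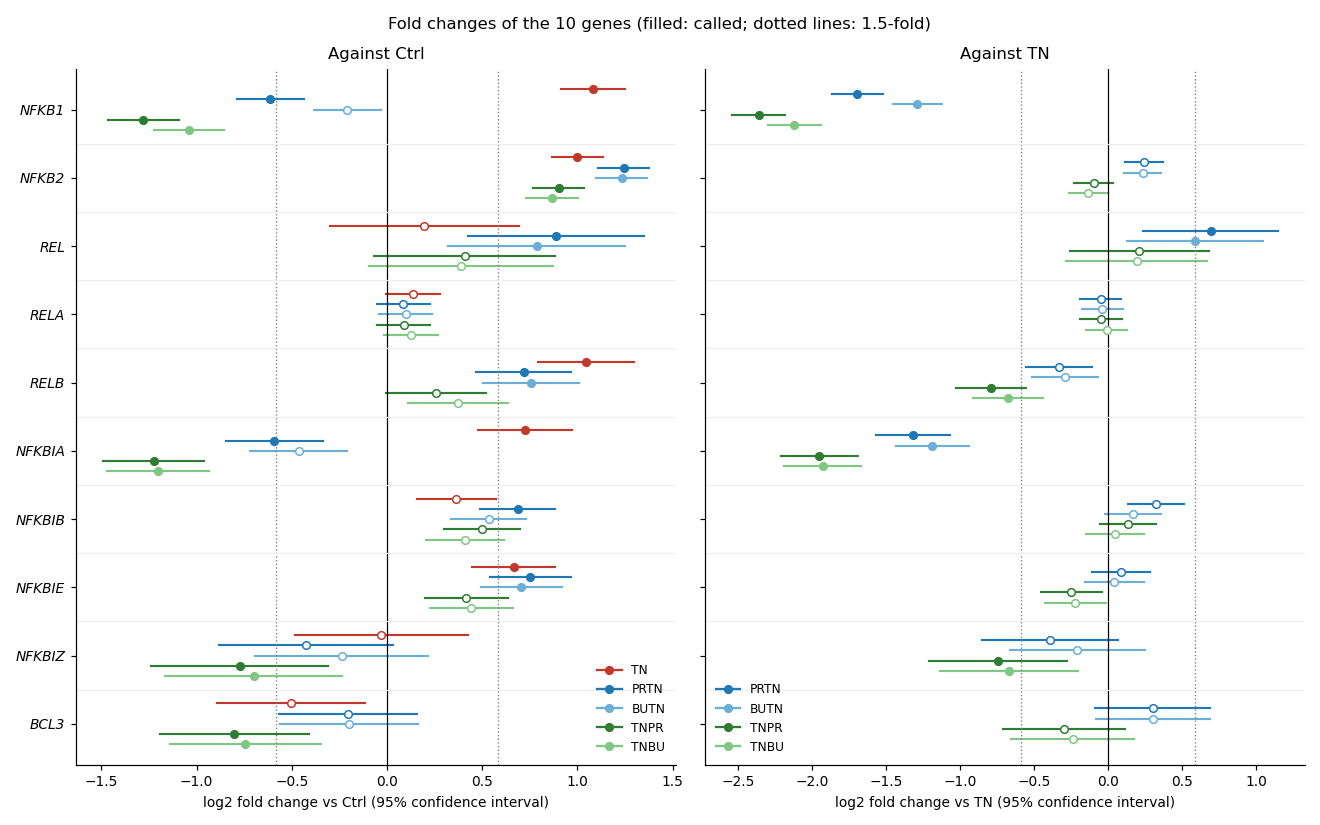
Log2 fold changes of the 10 genes against Ctrl (left) and against TN (right), with 95% confidence intervals from the moderated fit, filled points for called genes and dotted lines at 1.5-fold. NFKB1 and NFKBIA lie to the left of the dotted line in all 4 SCFA groups against TN, NFKB2 lies to the right of it in all 5 groups against Ctrl, and RELA stays near 0.

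NFKB1 (ENSG00000109320.11, chr4:102501330-102617302, plus strand) encodes a precursor that is processed to the usual DNA-binding partner of RELA. Its level was 73.0 and 76.2 CPM in Ctrl and 153 and 162 CPM in TN. In the SCFA groups it was 46.5 and 51.2 CPM in PRTN, 63.9 and 65.2 CPM in BUTN, 31.6 and 29.8 CPM in TNPR, and 39.6 and 33.3 CPM in TNBU. Every SCFA library was below every Ctrl and TN library. Against TN, NFKB1 fell by 1.69 (SE 0.08) on the log2 scale in PRTN, 1.29 in BUTN, and by 2.36 and 2.12 in TNPR and TNBU (limma, highest adjusted p = 4.26e-08). Against Ctrl it fell by 0.61 in PRTN (adjusted p = 3.46e-05), 1.28 in TNPR and 1.04 in TNBU. In BUTN the log2 fold change against Ctrl was -0.21 (adjusted p = 0.0433), short of 1.5-fold. The call in PRTN vs Ctrl was lost without Ctrl replicate 2 (log2 fold change -0.58), without PRTN replicate 1 (-0.56) and with library size alone as scaling (-0.51).

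NFKB2 (ENSG00000077150.18, chr10:102394110-102402524, plus strand) encodes the precursor of the alternative pathway, whose processed form pairs with RELB. It measured 94.3 and 94.4 CPM in Ctrl, 182 and 195 CPM in TN, 222 and 225 CPM in PRTN, and 226 and 218 CPM in BUTN. In TNPR it was 184 and 169 CPM, and in TNBU 169 and 175 CPM. All treated libraries were above Ctrl, and PRTN and BUTN did not overlap TN. NFKB2 rose against Ctrl by 1.00 in TN (SE 0.06, adjusted p = 4.8e-06), 1.24 in PRTN, 1.23 in BUTN, and 0.90 and 0.87 in TNPR and TNBU, on the log2 scale, with the highest adjusted p among the SCFA groups at 1.83e-07 (limma). Against TN, none of the 4 log2 fold changes reached 1.5-fold. They were 0.24 in PRTN (adjusted p = 0.00333), 0.23 in BUTN (adjusted p = 0.00469), -0.10 in TNPR and -0.13 in TNBU. With library size alone as scaling, which shifted the median of all genes by 0.15 to 0.20 in comparisons with TN, the last pair became 0.075 and 0.062.

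The precursor genes thus moved apart under SCFA treatment, and their ratio within a library does not depend on scaling. This ratio was chosen after the values were seen and is given without a test. There were 1.29 and 1.24 NFKB2 counts per NFKB1 count in Ctrl and 1.19 and 1.20 in TN. In the SCFA groups the ratio was 4.78 and 4.39 in the PRTN replicates and 3.53 and 3.34 in those of BUTN. After the late treatments it was 5.82 and 5.67 with propionate (TNPR) and 4.27 and 5.25 with butyrate (TNBU). NFKB1 made up 26.2% and 26.4% of the counts of the 5 subunit genes in Ctrl and 32.6% in each TN library, but between 9.03% and 15.4% in the SCFA libraries. The summed level of the 5 subunit genes was 284 ± 7.15 CPM in Ctrl, 484 ± 19.0 CPM in TN, 416 ± 6.09 CPM in PRTN and 429 ± 8.96 CPM in BUTN (SD, n = 2 each). In TNPR it was 335 ± 21.2 CPM and in TNBU 341 ± 5.77 CPM.

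**Figure D4:**
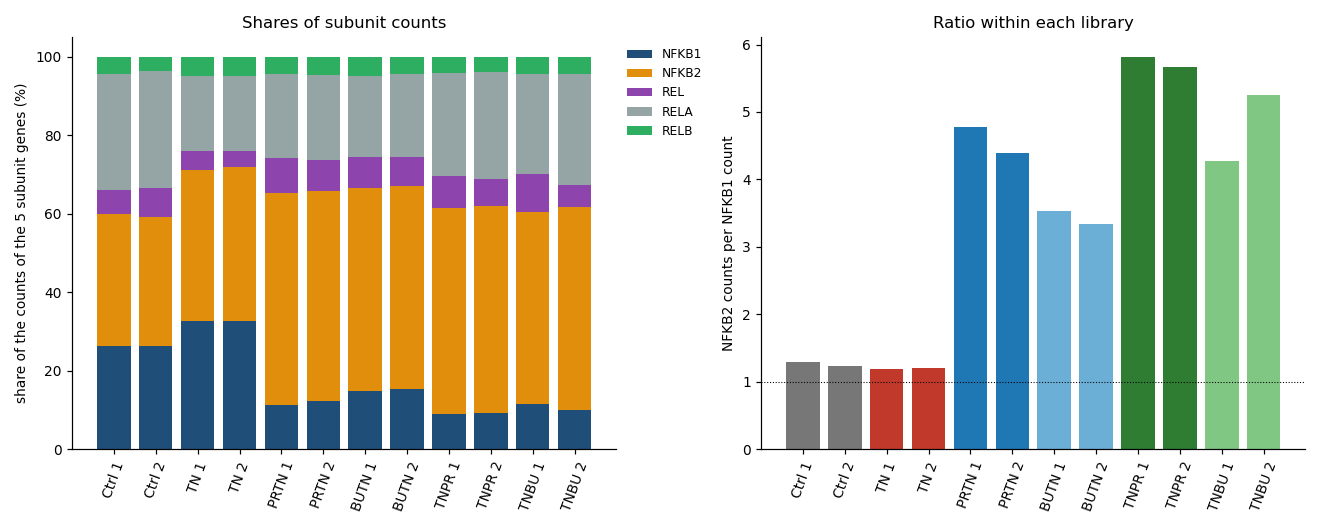
Share of each subunit gene in the summed counts of the 5 (left, stacked to 100%) and NFKB2 counts per NFKB1 count (right), with 1 bar per library and a dotted line at a ratio of 1. The share of NFKB1 is 26.2% to 32.6% without SCFA and 9.03% to 15.4% with it, and the ratio is 1.19 to 1.29 without SCFA and 3.34 to 5.82 with it.

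RELB (ENSG00000104856.13, chr19:45001461-45038192, plus strand) encodes the transactivating partner of processed NFKB2. Its level was 12.4 and 10.7 CPM in Ctrl, 22.9 and 24.8 CPM in TN, 18.4 and 19.6 CPM in PRTN, 21.0 and 18.1 CPM in BUTN, 14.8 and 12.8 CPM in TNPR, and 15.5 and 14.4 CPM in TNBU. All SCFA libraries lay between those of Ctrl and TN. RELB fell against TN by 0.79 (SE 0.11, adjusted p = 4.17e-05) in TNPR and by 0.67 (SE 0.11, adjusted p = 0.00017) in TNBU on the log2 scale (limma). The differences of -0.33 in PRTN and -0.29 in BUTN did not reach 1.5-fold, and both groups remained called up against Ctrl, by 0.72 and 0.75. In TNBU the call against TN was lost with library size alone as scaling (-0.48).

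REL (ENSG00000162924.13, chr2:60881491-60931612, plus strand) encodes c-Rel, a subunit best known from lymphocytes. Its expected counts were not whole numbers in any library, so that part of its reads was assigned by estimation. REL measured 17.0 and 21.4 CPM in Ctrl, 22.7 and 21.0 CPM in TN, 37.1 and 33.5 CPM in PRTN, 34.7 and 31.2 CPM in BUTN, 28.7 and 22.2 CPM in TNPR, and 33.4 and 18.8 CPM in TNBU. PRTN and BUTN lay above Ctrl and TN, whereas the TNBU libraries were far apart, 1 above all Ctrl and TN libraries and 1 within the Ctrl range. REL was called up against TN in PRTN by 0.69 (SE 0.21, adjusted p = 0.0129) and in BUTN by 0.59 (SE 0.21, adjusted p = 0.031), and against Ctrl by 0.89 and 0.79, on the log2 scale (limma). The PRTN call against TN was lost without TN replicate 1 (adjusted p = 0.0553), TN replicate 2 (0.0951) or PRTN replicate 1 (0.0838). The BUTN call against TN was lost without TN replicate 1 (adjusted p = 0.0975), TN replicate 2 (0.164), BUTN replicate 1 (0.150) or BUTN replicate 2 (0.0610), and against Ctrl without Ctrl replicate 1 (0.0805) or BUTN replicate 1 (0.0504). In TNBU, where REL was not called, leaving out replicate 2 gave a call against TN of 0.59 (adjusted p = 0.00815) and leaving out replicate 1 gave -0.25.

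RELA (ENSG00000173039.18, chr11:65653599-65663090, minus strand) encodes the main transactivating subunit of the classical pathway. It ranged from 81.9 to 95.6 CPM over the 12 libraries. Its log2 fold changes were 0.13 in TN vs Ctrl and between -0.05 and -0.01 in the SCFA groups vs TN, none of which was called (limma, lowest adjusted p = 0.32). With library size alone as scaling the values against TN were 0.11 to 0.19. For TN vs Ctrl the 95% confidence interval was -0.0062 to 0.28.

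NFKBIA (ENSG00000100906.10, chr14:35401079-35404749, minus strand) encodes IκBα, the inhibitor whose resynthesis ends the NF-κB response. Its level was 192 and 187 CPM in Ctrl, 305 and 322 CPM in TN, 125 and 127 CPM in PRTN, and 134 and 141 CPM in BUTN. In TNPR it was 94.3 and 69.5 CPM, and in TNBU 92.9 and 73.3 CPM. All SCFA libraries were below Ctrl, and those treated after TNF-α were below those treated before it. NFKBIA fell against TN by 1.31 (SE 0.11) in PRTN, 1.19 in BUTN, and by 1.95 and 1.93 in TNPR and TNBU on the log2 scale (limma, highest adjusted p = 2.37e-06). Against Ctrl it fell by 1.23 in TNPR and 1.20 in TNBU, and by 0.59 in PRTN (adjusted p = 0.000903), while in BUTN it was -0.46 (adjusted p = 0.00487), short of 1.5-fold. The PRTN call against Ctrl was lost without Ctrl replicate 1 (-0.57), with DESeq2 (-0.57), with relative log expression scaling (-0.57), with library size alone (-0.49) and with a stricter filter (-0.58).

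NFKBIE (ENSG00000146232.15, chr6:44258166-44265788, minus strand) encodes IκBε, another cytoplasmic inhibitor. It measured 16.5 and 15.8 CPM in Ctrl, 24.3 and 27.0 CPM in TN, 27.4 and 27.0 CPM in PRTN, 26.5 and 26.2 CPM in BUTN, 21.8 and 21.4 CPM in TNPR, and 19.8 and 24.3 CPM in TNBU. Every treated library was above Ctrl, unlike NFKBIA. NFKBIE was called up against Ctrl in PRTN (0.75, adjusted p = 2.79e-05) and BUTN (0.71, adjusted p = 5.5e-05) by limma, but not in TNPR (0.42) or TNBU (0.44). Against TN the log2 fold changes were between -0.25 and 0.09, and none was called.

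NFKBIB (ENSG00000104825.16, chr19:38899700-38908893, plus strand) encodes IκBβ, the third classical inhibitor. Its level was 9.74 and 10.1 CPM in Ctrl, 12.4 and 13.1 CPM in TN, 15.9 and 16.0 CPM in PRTN, 14.0 and 14.7 CPM in BUTN, 14.7 and 13.3 CPM in TNPR, and 13.1 and 13.3 CPM in TNBU. All treated libraries were above Ctrl, but the gene was called up only in PRTN vs Ctrl (0.69, SE 0.09, adjusted p = 3.04e-05, limma), with log2 fold changes of 0.53, 0.50 and 0.41 in BUTN, TNPR and TNBU. With library size alone as scaling, BUTN (0.63) and TNPR (0.62) were called as well.

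NFKBIZ (ENSG00000144802.11, chr3:101827991-101861022, plus strand) encodes IκBζ, a nuclear protein that works as a co-regulator of NF-κB target genes. It measured 569 and 626 CPM in Ctrl, 614 and 556 CPM in TN, 477 and 414 CPM in PRTN, and 541 and 473 CPM in BUTN. In TNPR it was 469 and 258 CPM, a difference of 0.86 on the log2 scale between replicates, and in TNBU 434 and 311 CPM. Ctrl and TN overlapped, and all SCFA libraries were below both. NFKBIZ fell against TN by 0.74 in TNPR (SE 0.21, adjusted p = 0.00972) and by 0.67 in TNBU (SE 0.21, adjusted p = 0.0175), and against Ctrl by 0.77 and 0.70, on the log2 scale (limma). The calls against TN were lost without TN replicate 1 (adjusted p = 0.0558 and 0.0886), without replicate 2 of TNPR (-0.37, adjusted p = 0.0749) or TNBU (-0.45, adjusted p = 0.135), and for TNPR also with library size alone (-0.57). Those against Ctrl were lost without Ctrl replicate 2 (adjusted p = 0.0516 and 0.0775) and without replicate 2 of TNPR (-0.39) or TNBU (-0.47), and neither TNBU comparison was called by DESeq2 (adjusted p = 0.0606 vs TN and 0.0536 vs Ctrl) or with library size alone (log2 fold change -0.47 and -0.56).

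BCL3 (ENSG00000069399.14, chr19:44747705-44760044, plus strand) encodes a nuclear IκB protein that binds the processed precursor subunits on DNA. Its level was 23.6 and 21.4 CPM in Ctrl, 14.9 and 16.9 CPM in TN, 18.0 and 21.2 CPM in PRTN, 21.1 and 18.2 CPM in BUTN, 16.3 and 10.1 CPM in TNPR, and 14.8 and 12.2 CPM in TNBU. Both TN libraries were below Ctrl, with a log2 fold change of -0.50 (SE 0.18, adjusted p = 0.159, limma) that was not called. BCL3 fell against Ctrl by 0.80 in TNPR (adjusted p = 0.00205) and by 0.74 in TNBU (adjusted p = 0.0037). Without TNPR replicate 2 the former was -0.51 (below 1.5-fold), and without TNPR replicate 1 the uncalled -0.30 against TN became -0.70 (adjusted p = 0.00572).

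Propionate and butyrate were set side by side at the same times, although their doses differed. Between PRTN and BUTN, 0 of the 10 genes were called by limma, edgeR or DESeq2, against 0.0411% of all genes up and 0.127% down, and 1 gene had an unadjusted p under 0.05. This gene was NFKB1, with 48.8 ± 3.32 CPM in PRTN and 64.6 ± 0.860 CPM in BUTN (SD, n = 2) and a log2 fold change of -0.40 (95% confidence interval -0.58 to -0.23, adjusted p = 0.0523 by limma). Between TNPR and TNBU, 0 were called by the 3 tools, against 0% of all genes up and 0.00822% down. Again NFKB1 alone had an unadjusted p under 0.05, at -0.24 (95% confidence interval -0.44 to -0.04, adjusted p = 0.494 by limma). For NFKBIA the 95% confidence intervals were -0.39 to 0.13 and -0.30 to 0.25, respectively. These intervals do not show that the SCFAs act alike.

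SCFA given after TNF-α was compared with SCFA given before it, which also differ in the time since TNF-α. In TNPR vs PRTN, 0 were higher and 8 lower at an unadjusted p under 0.05, where the share of all genes was not counted. By the call, 0 genes were up and 1 down, with 0.0534% and 0.107% of all genes. The called gene was NFKB1, with a log2 fold change of -0.67 (SE 0.09, adjusted p = 0.00784, limma), lost without PRTN replicate 2 (adjusted p = 0.0645) and without TNPR replicate 2 (0.0658). Without TNPR replicate 1, 3 genes were called down, among them NFKBIA (-0.87, adjusted p = 0.0119), which in the full comparison was at -0.63 (adjusted p = 0.0705). In TNBU vs BUTN, 0 were higher and 6 lower at an unadjusted p under 0.05, again without a share of all genes. By the call, 0 genes were up and 2 down, with 0.0945% and 0.173% of all genes. They were NFKB1 at -0.83 (SE 0.08, adjusted p = 0.00113) and NFKBIA at -0.74 (SE 0.12, adjusted p = 0.0186), the latter lost without BUTN replicate 1 (adjusted p = 0.152), BUTN replicate 2 (0.157) or TNBU replicate 2 (0.0872). In both comparisons edgeR and DESeq2 also called 0 genes up. All calls of the later against the earlier treatment were lost when only the 4 libraries compared were fitted (adjusted p from 0.103 to 0.184).

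Per kilobase of exon, NFKBIZ had the highest level and REL the lowest in each of the 6 groups, also with the longest transcript as length. In Ctrl the levels were 101 ± 6.89 CPM per kb for NFKBIZ, 55.9 ± 1.03 for NFKBIA, 16.9 ± 0.00894 for NFKB2, 15.4 ± 0.533 for RELA and 7.27 ± 0.494 for BCL3 (SD, n = 2). The following levels were 6.26 ± 0.184 CPM per kb for NFKBIE, 4.76 ± 0.144 for NFKB1, 4.27 ± 0.113 for NFKBIB, 3.85 ± 0.404 for RELB and 1.12 ± 0.184 for REL. NFKBIB and RELB did not differ beyond their spread, and the places of NFKBIE, NFKB1, NFKBIB and RELB changed with the length chosen. NFKB2, which followed NFKBIZ and NFKBIA in Ctrl and TN, stood above NFKBIA in PRTN with 40.0 ± 0.337 against 37.1 ± 0.457 CPM per kb, in TNPR with 31.6 ± 1.93 against 24.1 ± 5.15 CPM per kb, and in TNBU with 30.8 ± 0.732 against 24.5 ± 4.09 CPM per kb. In BUTN they were at 39.7 ± 1.00 and 40.5 ± 1.41 CPM per kb, within their spread, and with the longest transcript NFKB2 stood above NFKBIA there as well.

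Of 38 other genes of the pathway, all of which passed the filter, TNF-α alone raised 11 and lowered 0 (limma), with 0.764% of all genes up and 0.534% down, and edgeR and DESeq2 each called 10 up and 0 down. Against TN, 3 were called up and 12 down in PRTN (23.9% and 16.7% of all genes), and 3 up and 8 down in BUTN (23.1% and 14.8%). TNPR had 2 up and 14 down (24.9% and 16.9%), and TNBU 3 up and 13 down (25.0% and 16.5%). Among 8 target genes, TNF-α raised 7 by limma, 6 by edgeR and 5 by DESeq2. Of the same 8, 6, 4, 7 and 6 were called down against TN in PRTN, BUTN, TNPR and TNBU. The down calls in TNPR and TNBU include CXCL1, which TNF-α alone did not raise. CXCL1 was near the floor in these groups, at 0.033 to 0.070 CPM, and DESeq2 called 6 and 5 target genes down there. IL6, a cytokine, was at 34.2 and 41.4 CPM in Ctrl, 112 and 109 CPM in TN, and at 9.69 to 17.3 CPM in the SCFA groups. CCL2, a chemokine, was at 4.81 and 5.16 CPM in Ctrl, 18.1 and 20.6 CPM in TN, and at 1.56 to 3.99 CPM in the SCFA groups. ICAM1, an adhesion molecule, was at 159 and 169 CPM in Ctrl and 437 and 478 CPM in TN. In the SCFA groups it was called up against TN in BUTN (838 and 782 CPM, 0.82, adjusted p = 1.8e-07, limma) and down in TNPR (308 and 295 CPM, -0.60, adjusted p = 3.06e-06). In PRTN (597 and 611 CPM, 0.40) and TNBU (383 and 367 CPM, -0.29) it did not reach 1.5-fold.

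Among 5 genes that restrain the pathway, TNFAIP3, a deubiquitinase, rose by 2.15 in TN vs Ctrl and fell by 0.77 to 1.65 on the log2 scale in the SCFA groups vs TN. TNIP1, which binds TNFAIP3, rose by 0.69 and fell by 1.08 to 1.52 in the same comparisons. The 7 genes of the TAK1 and IκB kinase complexes, which pass the signal to IκB, had log2 fold changes between -0.38 and 0.43 in the 5 comparisons, and 0 were called by limma, edgeR or DESeq2. At an unadjusted p under 0.05 there were 3 or 4 of these 7 in each of the 5 comparisons. The share of all genes at that threshold was not counted, so these numbers are no result about the 7 genes. Against Ctrl, 1 of the 7 was called up in PRTN by each of the 3 tools, with 22.6% of all genes. By limma this was CHUK, with a log2 fold change of 0.63 (adjusted p = 5.69e-05). In the other SCFA groups, 0 of the 7 were called against Ctrl. Of the 4 genes of the ligase that marks IκB for degradation, CUL1, its scaffold, was at 58.1 and 60.1 CPM in Ctrl, 70.3 and 69.3 CPM in TN and 19.5 to 25.2 CPM in the SCFA groups, and was called down in all 4 against TN. In the alternative pathway, MAP3K14, the kinase that triggers NFKB2 processing, was at 30.3 to 33.5 CPM in Ctrl and TN and at 62.2 to 76.6 CPM in the SCFA groups, where it was called up by 1.03 to 1.19 on the log2 scale. TRAF3, which keeps that kinase low, was at 39.3 and 41.6 CPM in Ctrl and at 55.1 and 57.1 CPM in TN. It fell against TN by 0.61 in PRTN, 0.94 in TNPR and 0.82 in TNBU, and by 0.46 in BUTN, short of 1.5-fold. Its level was 36.3 to 41.8 CPM in PRTN and BUTN, near that of Ctrl, and 29.0 to 33.0 CPM in TNPR and TNBU. NFKBID, another nuclear IκB gene, was at 6.75 and 7.54 CPM in TN and at 1.03 to 3.06 CPM in the SCFA groups. Among 7 receptor-proximal genes, BIRC3, a ubiquitin ligase, rose by 1.03 on the log2 scale in TN vs Ctrl. Against TN it rose further, by 1.22 in PRTN, 1.42 in BUTN and 0.70 in TNBU, while 0.50 in TNPR did not reach 1.5-fold.

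**Figure D5:**
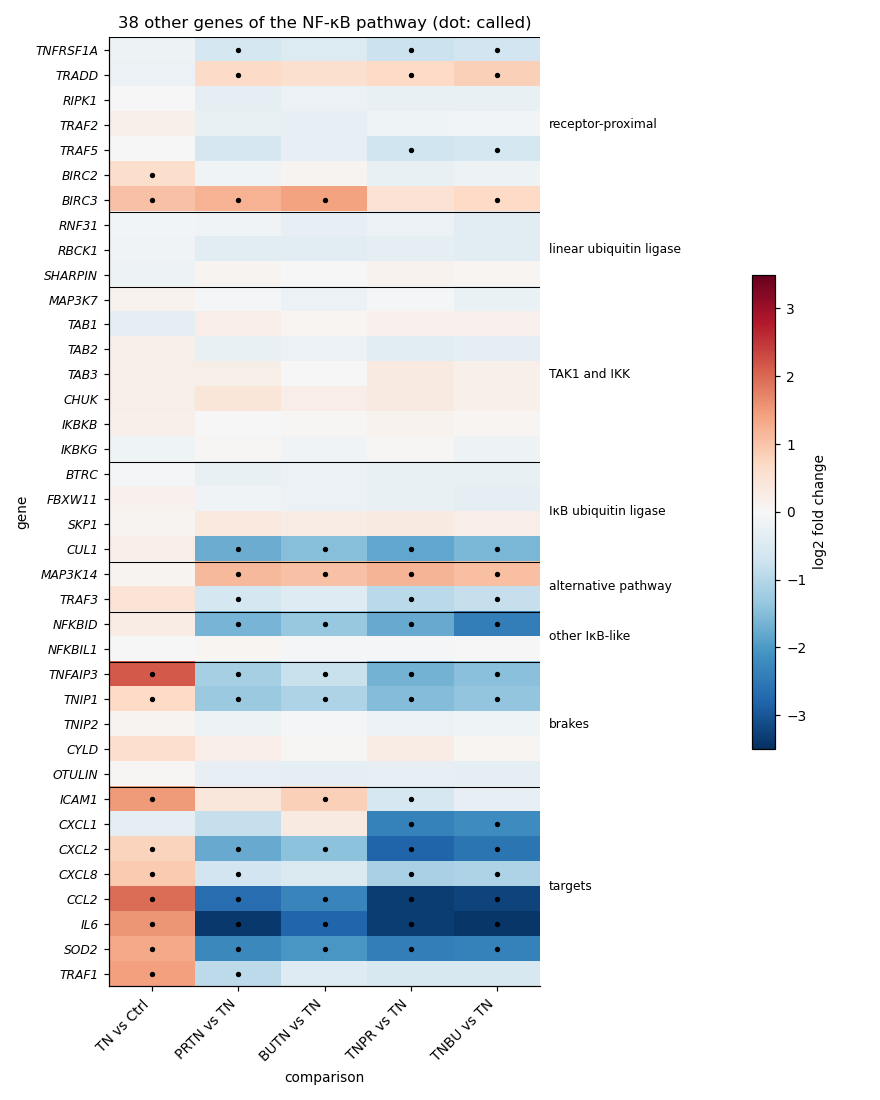
Log2 fold changes of 38 other NF-κB pathway genes, grouped by role, in TN vs Ctrl and in the 4 SCFA groups vs TN, with a dot where a gene was called. The target genes are mostly red in TN vs Ctrl and blue against TN, CUL1 is blue and MAP3K14 red in all 4 SCFA groups, and the TAK1 and IκB kinase genes carry no dot.

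The gene of most similar pattern was sought for each of the 10 by Pearson's correlation of log2 CPM over the 12 libraries, among 14974 genes. The libraries share their groups, so the values are descriptive. The nearest gene was TRAF3 for NFKB1 (r = 0.990), IFNGR2 for NFKBIA (r = 0.997), PPP4R4 for NFKB2 (r = 0.981) and TANC1 for REL (r = 0.982). It was SMAD3 for RELB (r = 0.973), MEIS1 for NFKBIB (r = 0.970), BIN1 for BCL3 (r = 0.964), TAF4 for NFKBIZ (r = 0.962) and ADORA2A for NFKBIE (r = 0.941). RELA, with the narrowest range of levels, had the lowest value, 0.810 with IFITM2.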

How the data were processed

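The authors sequenced polyadenylated RNA of HK2 cells as stranded libraries, aligned the reads to GRCh38 with STAR (version 2.6.1a, after FastQC 0.11.5, per the submitters' processing notes) and estimated counts per gene of GENCODE release 26 with RSEM. The strand setting and the RSEM version are not given in the sources used here. The deposited values are these expected counts, neither scaled nor filtered, with 1 set of values per library. They were tested as deposited with limma 3.58.1 in R 4.3.3, with TMM factors from edgeR 4.0.16, voom weights, a mean per group and all 12 libraries. The filter added 1 to each count, took the geometric mean over the libraries, subtracted 1 and required a value of 1 or more, so that 33936 of 58278 genes dropped out. Calls needed a fold change over 1.5 and a Benjamini-Hochberg adjusted p under 0.05 over the 24342 kept genes. Confidence intervals used 12.1 degrees of freedom. With 2 replicates per group the p-values rest on the pooled spread of all groups.

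The group of a library is that of its own label. All 10 family genes are named, and of 38 other pathway genes up to 3 per role, from those with the largest called change in the comparison described. For the target genes this comparison was TN vs Ctrl, and CXCL1 is named in addition because of its low level. The similar genes had a mean of at least 1 CPM and were compared after adding 0.5 CPM. The family, lists and tests were chosen with earlier results of these data known. The fits were tested on simulated data. Gene positions are those of GENCODE release 44 (GRCh38), and promoter sequences those of RefSeq. Alternatives were edgeR and DESeq2 1.42.0 on rounded counts, other scalings and filters, fits of only the groups compared, the replicate number as a block, a 2-fold threshold, the longest transcript as length, and leaving out each replicate. A further leukocyte marker of the list is not reported here, and the sums leave it out.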

Additional observations from a re-analysis of the deposited data

Results flagged for a closer look

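In 3 results, cells given the SCFA after TNF-α and cells given it before differed by a test of the difference itself (limma, all 12 libraries). NFKB1 was at -0.67 on the log2 scale in TNPR vs PRTN (adjusted p = 0.00784) and at -0.83 in TNBU vs BUTN (adjusted p = 0.00113). NFKBIA was at -0.74 in TNBU vs BUTN (adjusted p = 0.0186). In each, both libraries of the later treatment were below both of the earlier one. Of all genes, 0.107% were called down in TNPR vs PRTN and 0.173% in TNBU vs BUTN. All 3 calls were lost when only the groups compared were fitted (limma, adjusted p from 0.103 to 0.184). NFKB1 in TNPR vs PRTN and NFKBIA in TNBU vs BUTN also lost the call when single replicates were left out. The groups also differ in the time since TNF-α, which cannot be told apart from the order of treatment.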

How the results depend on the processing

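Of the log2 fold changes under the alternatives, 1104 kept their direction and their side of the thresholds, 44 lost the call, 8 gained it and 20 turned in sign. None of those that turned had been called. With library size alone, RELA against TN was 0.11 and 0.12 in PRTN and BUTN, and 0.13 and 0.19 in TNPR and TNBU, and NFKB2 was 0.075 in TNPR and 0.062 in TNBU. RELA in TNBU vs TN was 0.0048 with DESeq2 and 0.0036 with relative log expression scaling. Leaving out each replicate gave ranges that cross 0 for NFKBIZ in TN vs Ctrl (-0.10 to 0.041), NFKBIE in PRTN vs TN (-0.019 to 0.13) and BUTN vs TN (-0.063 to 0.089), REL in TNPR vs TN (-0.022 to 0.34), TNBU vs TN (-0.25 to 0.59) and TNBU vs Ctrl (-0.043 to 0.80), RELA (-0.099 to 0.018) and NFKBIB (-0.011 to 0.072) in TNBU vs TN, and NFKBIA in TNPR vs TNBU (-0.26 to 0.17).

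With only the groups compared, 3 genes were called up in TN vs Ctrl, 0 in BUTN vs TN, and 0 were called down in TNPR vs PRTN and in TNBU vs BUTN, in fits with fewer libraries. At 2-fold, 3 genes were up in TN vs Ctrl, 0 up in PRTN vs TN and BUTN vs TN, 2 down in TNPR vs TN and TNBU vs TN, 1 up and 0 down in PRTN vs Ctrl, 1 up in BUTN vs Ctrl, 0 up and 2 down in both TNPR vs Ctrl and TNBU vs Ctrl, and 0 down in TNPR vs PRTN and TNBU vs BUTN. With library size alone, 2 were down in TNBU vs TN, 0 down in PRTN vs Ctrl and 2 up in TNPR vs Ctrl. DESeq2, and likewise a filter that removes any gene with a 0, gave 1 down in PRTN vs Ctrl and 2 down in TNPR vs PRTN. Relative log expression scaling gave 1 down in PRTN vs Ctrl, and with no filter beyond a count of 1, BUTN vs TN had 0 up. The cause was not tested.

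Leaving out each replicate gave 0 to 1 genes up in PRTN vs TN, 0 in BUTN vs TN, 0 to 1 in TNBU vs TN and 1 to 2 in TNBU vs Ctrl. It gave 1 to 2 down in PRTN vs Ctrl, 2 to 4 in TNPR vs Ctrl, 0 to 3 in TNPR vs PRTN and 1 to 3 in TNBU vs BUTN.

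No clear pairing by replicate number was seen. Over 15 pairs of groups, the correlation of the deviations from the group mean between libraries with the same number was -0.0458 to 0.109, and 1 pair exceeded 0.1. It was taken over all kept genes, with those of low count. It therefore cannot show whether libraries with the same number were prepared together. With the replicate number as a block, 5 genes were called up in TN vs Ctrl, as without it, and the block moved no other count of the 10 genes.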

Other observations

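Within a library, the count of the inhibitor gene NFKBIA can be set against that of the subunit gene RELA without any scaling. The ratio was 2.26 ± 0.12 NFKBIA counts per RELA count in Ctrl and 3.40 ± 0.00682 in TN (SD, n = 2 each). It was 1.41 ± 0.0234 in PRTN and 1.53 ± 0.0485 in BUTN, and was 0.916 ± 0.165 in TNPR and 0.914 ± 0.209 in TNBU, where 1 library of each group was above 1. Against NFKB2, the same gene was at 2.01 ± 0.0381 counts in Ctrl and 1.66 ± 0.0196 in TN, but at 0.564 ± 0.0022 in PRTN and 0.621 ± 0.0371 in BUTN. It was at 0.462 ± 0.0709 counts in TNPR and 0.484 ± 0.0922 in TNBU. These ratios were chosen after the values were seen and are given without a test.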
